A study of Mus musculus with 6 samples.

Results

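The cytosolic ribosomal protein genes encode the protein part of the ribosome that translates nuclear messages. They were taken by name from a table of 34745 mouse genes: symbols that begin with Rpl or Rps and a digit, together with Rplp0, Rplp1, Rplp2 and Rpsa. After 21 names containing -ps, used for pseudogenes, and 10 S6 kinase names were dropped, 88 genes remained, of which 53 carry large subunit names and 34 small subunit names. Rps19bp1, which matched by its letters only, encodes a protein that binds Rps19 and belongs to neither subunit.

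The RNA came from macrophages, the resident phagocytes, of the peritoneal cavity of C57BL/6 mice. The vehicle group had 3 libraries from cells kept for 24 h with vehicle, and the R-2-HG group had 3 libraries from cells kept for 24 h with 0.1 mM R-2-hydroxyglutarate, the metabolite that mutant isocitrate dehydrogenases release. Libraries are named by group and replicate number. Levels are FPKM, fragments scaled to transcript length and to the mapped fragments of the library, so genes can be compared per length.

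Each ribosome carries a full set of these proteins: the small subunit reads the message and the large subunit joins the amino acids. In vertebrates the messages begin with a run of pyrimidines, the 5′ terminal oligopyrimidine tract, through which mTOR signalling controls their translation. Mammalian genomes also hold many processed copies of these genes, made by reverse transcription of their spliced messages, and several are transcribed.

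Copies of this kind bear on every level given here, because a short read from a shared stretch can be placed at either locus. The coding sequences below are shown because each parent gene is listed at a low level and its copy at a high one. They are the first 120 bases from the start codon in GENCODE release M21 (GRCm38), with genes placed by identifier. The 120 bases are the same in Rps27 (chr3:90212522-90213651, minus strand) and Rps27rt (chr9:114982366-114982739, minus strand). They are also the same in Rpl9 (chr5:65388364-65391444, minus strand) and Rpl9-ps6 (chr19:32465865-32466578, minus strand), and in Rpl12 (chr2:32961559-32965345, plus strand) and Gm10275 (chr10:29698746-29699380, minus strand). Rpl23a (chr11:78180932-78183584, minus strand) and Rpl23a-ps3 (chr14:34170655-34171122, plus strand) differ at 1 base, in capitals.
Rps27 and Rps27rt: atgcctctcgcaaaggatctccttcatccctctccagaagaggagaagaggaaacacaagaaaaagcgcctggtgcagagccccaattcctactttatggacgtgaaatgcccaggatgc
Rpl9 and Rpl9-ps6: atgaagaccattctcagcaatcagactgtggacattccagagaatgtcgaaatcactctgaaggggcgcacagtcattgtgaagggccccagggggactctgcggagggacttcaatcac
Rpl12 and Gm10275: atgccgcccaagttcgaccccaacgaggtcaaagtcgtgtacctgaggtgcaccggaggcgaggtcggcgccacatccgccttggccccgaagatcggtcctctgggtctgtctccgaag
Rpl23a: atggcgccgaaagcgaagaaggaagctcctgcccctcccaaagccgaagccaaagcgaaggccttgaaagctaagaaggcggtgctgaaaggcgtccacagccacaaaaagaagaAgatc
Rpl23a-ps3: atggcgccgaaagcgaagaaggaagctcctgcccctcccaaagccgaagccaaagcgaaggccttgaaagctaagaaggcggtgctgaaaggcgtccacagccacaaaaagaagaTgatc

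In the RefSeq table of promoters (GRCm38.p6), 67 of the 88 symbols had entries, 79 in all, each running from 250 bases before to 50 bases after an annotated start. The letters CTTTCC, a pyrimidine run, were searched on the strand of the gene only and stood in 38.0% of these entries, against 14.1% of all 32851 entries. CCGGAA, the core bound by ETS factors, was searched on both strands and stood in 46.8% against 14.9%. GGGCGG, the core of a GC box, stood in 59.5% against 35.7% (both strands), and AAGATGG in 15.2% against 6.34% (both strands). TATAAA, searched on the strand of the gene, stood in 7.59% against 8.32%. The median share of G or C was 58.3% in these entries and 52.7% in all, and genes with several starts enter more than once. Of the entries whose windows were read, 12 held CTTTCC within about 20 bases of the start, with its first base from 17 bases before the start to base 10 counted from it. Of these, 4 with the run at or just after the start are printed in windows of 30 bases, with CTTTCC in capitals, chosen to show the run and the pair Rps27 and Rps27rt; others, such as Rpl28, hold it as near. They lie at chr11:114668568-114668597 (plus strand), chr16:33056472-33056501 (plus strand), chr3:90213630-90213659 (minus strand) and chr9:114982722-114982751 (minus strand), in the order printed.
Rpl38: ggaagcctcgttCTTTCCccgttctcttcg
Rpl35a: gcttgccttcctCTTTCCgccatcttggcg
Rps27: ccgctttcgctcCTTTCCggcggtgacgac
Rps27rt: acttatcccttgCTTTCCggcggtgacgac
From the capitals to the end of the window, Rps27 and Rps27rt carry the same letters, and before the capitals their flanks differ.

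The size of the smallest FPKM steps put the depth at 15240000 to 16370000 fragments in the vehicle libraries and 13480000 to 16160000 in the R-2-HG libraries, with the lowest in R-2-HG 2. At that depth 1 fragment of a 500-base transcript is worth 0.122 to 0.148 FPKM. Of the macrophage markers, Lyz2 (lysozyme) stood between 16924 and 23901 FPKM and the 6 markers summed to between 18782 and 25569 FPKM. The 6 fibroblast and mesothelial markers summed to 81.7, 21.9 and 3.92 FPKM in vehicle 1, 2 and 3 and to 70.5, 11.2 and 3.81 FPKM in R-2-HG 1, 2 and 3. The 6 neutrophil markers summed to between 28.7 and 54.7 FPKM, the 5 B cell markers to 34.0 FPKM in vehicle 1 and between 5.82 and 10.3 FPKM elsewhere, and the 6 T and NK cell markers to 3.19 FPKM in vehicle 1 and between 0.308 and 1.17 FPKM elsewhere. The neutrophil and the fibroblast and mesothelial sums were also highest in vehicle 1. In bulk RNA, fewer cells of a type and less RNA per cell cannot be told apart. Nothing in the labels says that the libraries came from separate animals or cultures, so the tests measure the spread between these libraries, which may be technical.

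Ribosomal protein genes spanned a wide range of listed levels in macrophages. Of the 88, 19 averaged at least 100 FPKM over the 6 libraries and 32 a mean under 10 FPKM. A mean of at least 1 FPKM, the filter for testing, was reached by 78 genes: 46 large subunit, 31 small subunit and Rps19bp1. The tested small subunit genes had a median of 55.4 FPKM (quartiles 11.1 and 183) and the large subunit genes a median of 23.6 FPKM (quartiles 7.19 and 71.1). Copies at other loci, given further on, are not added in these medians. The highest tested gene stood 479-fold above the lowest, Rps6. The filter bounds the lower end of this range, and the level of Rps6 is uncertain, as given further on. Genes are not replicates of a condition, so no test is attached to the difference between subunits.

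**Figure D1:**
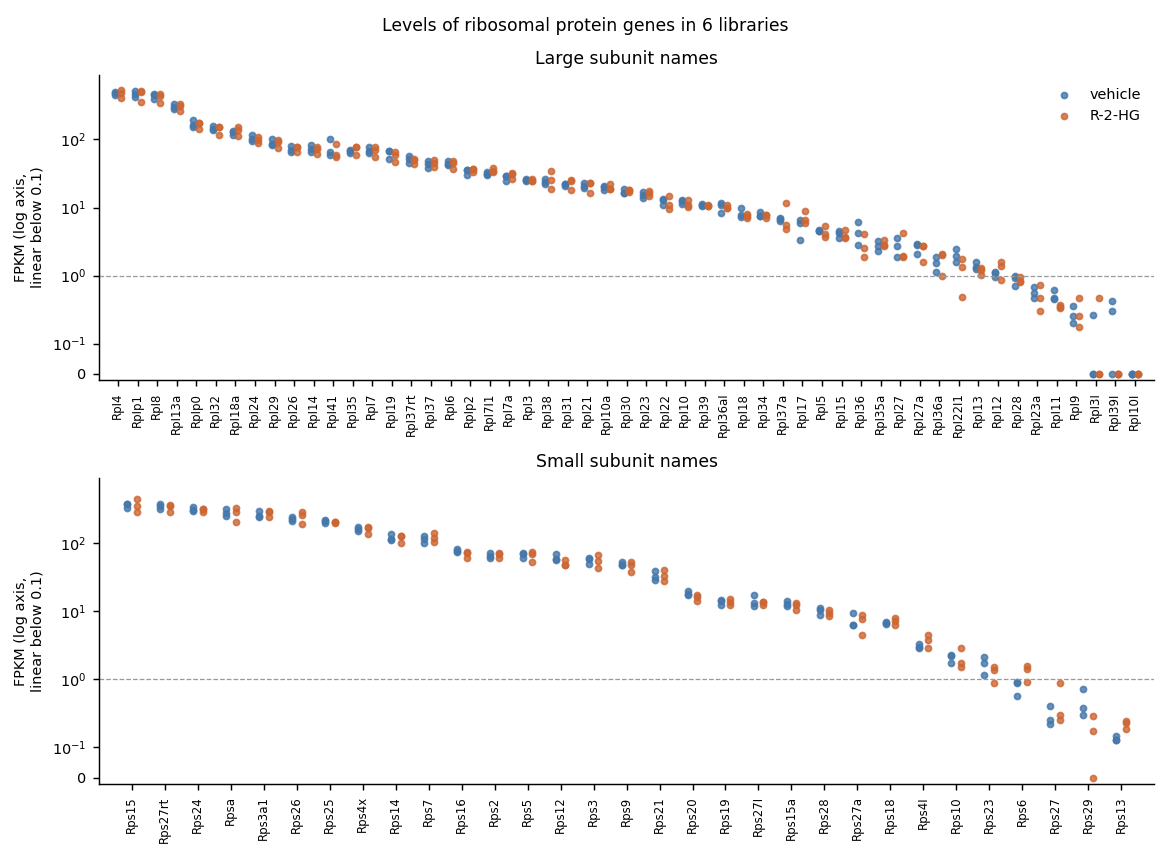
Level of 84 ribosomal protein genes in the 6 libraries, in FPKM on a log axis that is linear below 0.1, with the large subunit above, the small subunit below and Rps19bp1 left out. Each point is 1 library (blue, vehicle; orange, R-2-HG), genes run from the highest mean to the lowest, and the dashed line marks the filter of 1 FPKM. Levels run from 475 FPKM for Rpl4 to genes listed at 0, and the 2 colours overlap for most genes.

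The highest levels included several core proteins of both subunits. Rpl4, a large subunit protein that lines the exit tunnel, stood at 498, 447 and 484 FPKM in vehicle 1, 2 and 3 and 489.5, 403 and 528 in R-2-HG 1, 2 and 3. Rpl8, of the large subunit, stood at 466, 399 and 455 FPKM in vehicle and 433, 343 and 466 in R-2-HG. Rps15, of the head of the small subunit, had 370, 330 and 379 FPKM in vehicle and 349, 290.5 and 444 in R-2-HG. In each of the 6 libraries Rpl4 stood above Rpl8 and Rpl8 above Rps15. For these genes the lowest of the 6 values was in R-2-HG 2 and the highest in R-2-HG 3. The change with R-2-HG, a difference of group means of log2(FPKM + 1) with its moderated SE, was -0.02 ± 0.13 for Rpl4, -0.09 ± 0.14 for Rpl8 and -0.01 ± 0.16 for Rps15.

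The stalk proteins recruit elongation factors to the large subunit. Rplp0, the base of the stalk, stood at 190, 154 and 161 FPKM in vehicle and 173, 144 and 176 in R-2-HG. Rplp1, its first acidic partner, stood at 512, 417 and 464 FPKM in vehicle and 493, 355 and 522 in R-2-HG. Both genes spanned a wider range in R-2-HG than the distance between the group means, and R-2-HG 2 was lowest for each. Rplp2, the other acidic partner, stood far lower, at 36.0, 29.6 and 35.3 FPKM in vehicle and 36.4, 32.9 and 36.5 in R-2-HG. The changes were -0.04 ± 0.13 for Rplp0, -0.04 ± 0.16 for Rplp1 and 0.07 ± 0.11 for Rplp2 (log2, SE, n = 3 per group). Rplp2 was higher with R-2-HG in each of the 3 pairs of libraries with the same number, and its groups overlapped.

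Rpsa, a small subunit protein also known as the laminin receptor precursor, stood at 317, 249 and 274 FPKM in vehicle and 287, 204 and 327 in R-2-HG. Its R-2-HG libraries included both the lowest and the highest of the 6 values, and its change was -0.06 ± 0.18. Rps6, the small subunit protein phosphorylated by S6 kinases, was listed at only 0.904, 0.869 and 0.565 FPKM in vehicle and at 1.40, 0.924 and 1.56 in R-2-HG. It was the 1 tested gene with a group mean under 1 FPKM (0.779 ± 0.186 FPKM in vehicle, SD, n = 3), so it passed the filter through its R-2-HG libraries. Of the words of 50 bases in its transcript, 15.4% occur in no other gene model, and its 5 copies have no row in the table, so its level is uncertain. Rps27a, made as a fusion with ubiquitin, stood at 9.48, 6.30 and 6.16 FPKM in vehicle and 7.77, 4.52 and 8.84 in R-2-HG, with overlapping groups and a change of -0.07 ± 0.25.

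Rpl5 and Rpl11 form a particle with 5S ribosomal RNA that can also hold the p53 ligase Mdm2. Rpl5 stood at 4.57, 4.49 and 4.74 FPKM in vehicle and 4.10, 3.73 and 5.37 in R-2-HG, with a change of -0.06 ± 0.14. Rpl11 was listed at 0.446, 0.611 and 0.464 FPKM in vehicle and 0.337, 0.370 and 0.346 in R-2-HG, too low to be tested. These low values stand beside copies at other loci with far higher ones, given further on. Rps19, mutated in human Diamond-Blackfan anaemia, stood at 14.5, 12.5 and 14.02 FPKM in vehicle and 13.6, 12.5 and 15.2 in R-2-HG, and its groups overlapped (change 0.01 ± 0.12). Rps19bp1 stood at 20.1, 15.004 and 17.2 FPKM in vehicle and 19.8, 18.2 and 13.1 in R-2-HG (change -0.04 ± 0.17), with R-2-HG 3 lowest.

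Several proteins have a paralog, a related gene that encodes a similar protein. Rpl22 averaged 12.1 FPKM over the 6 libraries and Rpl22l1 1.59 FPKM, a 7.58-fold difference. Gm15421, at another locus, holds 56.5% of the Rpl22l1 transcript words and averaged 2.35 FPKM, so that difference is uncertain. Rpl39 averaged 10.8 FPKM and Rpl39l, known from testis, 0.1202 FPKM. Rpl3 averaged 25.2 FPKM and Rpl3l, known from striated muscle, 0.122 FPKM. Rpl39l and Rpl3l were listed at 0 in 4 libraries each, and Rpl10l, known from testis, in all 6, while Rpl10 averaged 11.7 FPKM. Rps4x, on the X chromosome, averaged 160 FPKM and Rps4l, annotated as a transcribed processed pseudogene, 3.36 FPKM. Rpl7 averaged 68.4 FPKM and Rpl7l1 33.2 FPKM. The paralog was the higher of the pair for Rpl36al (10.2 FPKM, against 1.60 FPKM for Rpl36a) and for Rps27l (13.6 FPKM, against 0.382 FPKM for Rps27). Of Rpl36a transcript words 14.5% are found in no other gene model and of Rps27 words 1.35%, so neither low value can be read as the level of its message. The levels of Rpl3 and Rpl10 are also uncertain, with 14.4% and 14.6% of their words in no other gene model. The lowest mean above 0 after Rpl39l and Rpl3l belonged to Rps13. It stood at 0.129, 0.147 and 0.130 FPKM in vehicle and 0.183, 0.227 and 0.245 in R-2-HG, near the worth of 1 fragment. Under 20% of Rps13 transcript words occur in no other gene model, and its 5 copies have no row in the table. The low value of Rps13 therefore cannot be read as the level of its message either.

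The 95% interval of the change included 0 for every tested paralog. The changes were -0.11 for Rpl22, -0.02 for Rpl3, -0.03 for Rpl39, -0.11 for Rpl10, -0.05 for Rpl7, -0.05 for Rps4x, 0.08 for Rpl36a, -0.02 for Rpl36al and -0.08 for Rps27l, each as the log2 difference of R-2-HG minus vehicle. Rps4l stood at 2.96, 3.28 and 2.88 FPKM in vehicle and 2.86, 4.43 and 3.74 in R-2-HG, a change of 0.20 ± 0.16 with overlapping groups.

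Copies at other loci were looked for with the same words of 50 bases. A copy is a gene model at another locus that holds at least 30% of the words of a ribosomal protein transcript. Of the 88 genes, 61 had at least 1 copy, with 180 copies in all, and 39 of these copies have a row in the table. Some are longer gene models with other names, such as Wdr89 (7.16 FPKM) and Uimc1 (3.40 FPKM), whose whole FPKM enter the sums. Several, among them Uimc1, Nphs1, C330021F23Rik, Gm5148 and Gm26619, span another counted copy, so the 180 are gene models and not separate loci. For 15 genes the copies summed to more FPKM than the gene itself. Of the 32 genes under 10 FPKM, 8 had copies that summed to over 100 FPKM.

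Rps27, a zinc finger protein of the small subunit, averaged 0.382 FPKM, and Rps27rt, which holds 98.6% of its words, averaged 340 FPKM. Rps27rt stood at 354, 319 and 376 FPKM in vehicle and 353, 282 and 357 in R-2-HG, overlapping between the groups. Rpl9 averaged 0.286 FPKM and Rpl9-ps6 224 FPKM, at 239, 219 and 232 FPKM in vehicle and 230, 197 and 227 in R-2-HG. Both pairs share the whole stretch of coding sequence printed above. Rpl12, of the stalk base, averaged 1.17 FPKM and Gm10275 267 FPKM, at 280, 264 and 273 FPKM in vehicle and 263, 234 and 291 in R-2-HG. Rpl23a, at the mouth of the exit tunnel, averaged 0.534 FPKM and Rpl23a-ps3 201 FPKM, at 199, 196 and 197 FPKM in vehicle and 212, 189 and 214 in R-2-HG. For Rpl9-ps6, Gm10275 and Rpl23a-ps3, as for Rps27rt, R-2-HG 2 was the lowest of the 6 libraries.

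Rpl5 averaged 4.50 FPKM beside 198 FPKM for Gm15500, Rpl27 2.70 FPKM beside 196 FPKM for Rpl27-ps3, and Rpl11 0.429 FPKM beside 159 FPKM for Gm10036. How reads that fit both loci were assigned is not stated by any source at hand, and the part of that step in these levels was not tested. With each gene summed with its copies, the median over the 88 genes went from 20.2 to 37.5 FPKM, the number at or above 100 FPKM from 19 to 31, and the number under 10 FPKM from 32 to 23. These sums hold 2 pairs that are copies of each other, Rps27 with Rps27rt and Rpl37 with Rpl37rt, whose FPKM enter for both. With each pair taken once, the 86 sums had a median of 33.3 FPKM, and 30 stood at or above 100 FPKM. Not every low gene has a copy listed at a high level: Rpl15, Rpl35a, Rps10 and Rps23 averaged 4.02, 2.84, 2.05 and 1.47 FPKM. Their copies either have no row or, for Rps23, summed to 0.0026 FPKM. Copies without a row have no level here, so their part in these low values is not known. The share of words found in no other gene model had a median of 49.9%, and the 19 genes under 20% had a median of 6.96 FPKM against 29.2 FPKM for the 44 genes at or above 50%. Over the 87 genes above 0, that share and the mean FPKM had a Spearman rho of 0.14, as a description across genes that share libraries.

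**Figure D2:**
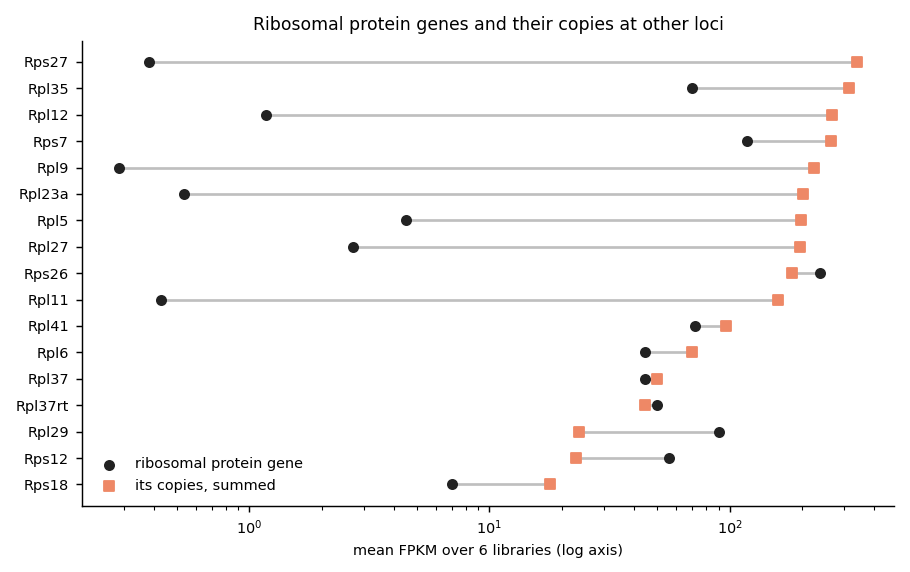
Mean FPKM over 6 libraries (log axis) of 17 ribosomal protein genes whose copies at other loci sum to over 10 FPKM. Black circles are the gene, orange squares the sum of its copies, and a grey line joins them. For Rps27, Rpl9, Rpl11 and Rpl23a the gene lies under 1 FPKM and the copies at 159 FPKM or more.

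Whether R-2-HG altered these levels was tested with limma on log2(FPKM + 1) over the 9701 genes that averaged at least 1 FPKM, with Benjamini-Hochberg adjustment. Libraries were not paired by number in this fit, which gave the SE, intervals and p values here unless another fit is named. None of the 78 tested ribosomal protein genes passed an adjusted p of 0.05 (all at 0.99998), and 0 had an unadjusted p under 0.05. Over all genes tested, 0.0% passed the adjusted threshold and 140 (1.44%) had an unadjusted p under 0.05. With 3 libraries against 3, an exact permutation test could reach no p under 0.1, and none was used for single genes. The R-2-HG mean was higher for 26 genes and lower for 52 (66.7%, beside 51.6% of all genes tested). Without vehicle 1, however, it was higher for 44, without R-2-HG 2 for 53, and without both libraries numbered 2 for 45. The median change was -0.04 on the log2 scale, beside -0.004 over all genes tested. It was -0.03 for the large subunit (17 higher, 29 lower) and -0.05 for the small subunit (9 higher, 22 lower), a difference of 0.02 between subunits. With a library left out that difference ran from -0.0035 (without R-2-HG 2) to 0.05 (without vehicle 3), and without R-2-HG 2 both medians were above 0 (0.0656 and 0.0691).

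The intervals bound the changes. The 95% interval lay within 0.5 of 0 on the log2 scale for 62 of the 78 genes and within 1 for 76. Over all 78 genes the interval bounds ran from -1.15 to 0.95. All 19 genes at or above 100 FPKM had intervals within 0.5 of 0. Changes inside these intervals could not be told from 0 in this unpaired fit with this number of libraries.

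**Figure D3:**
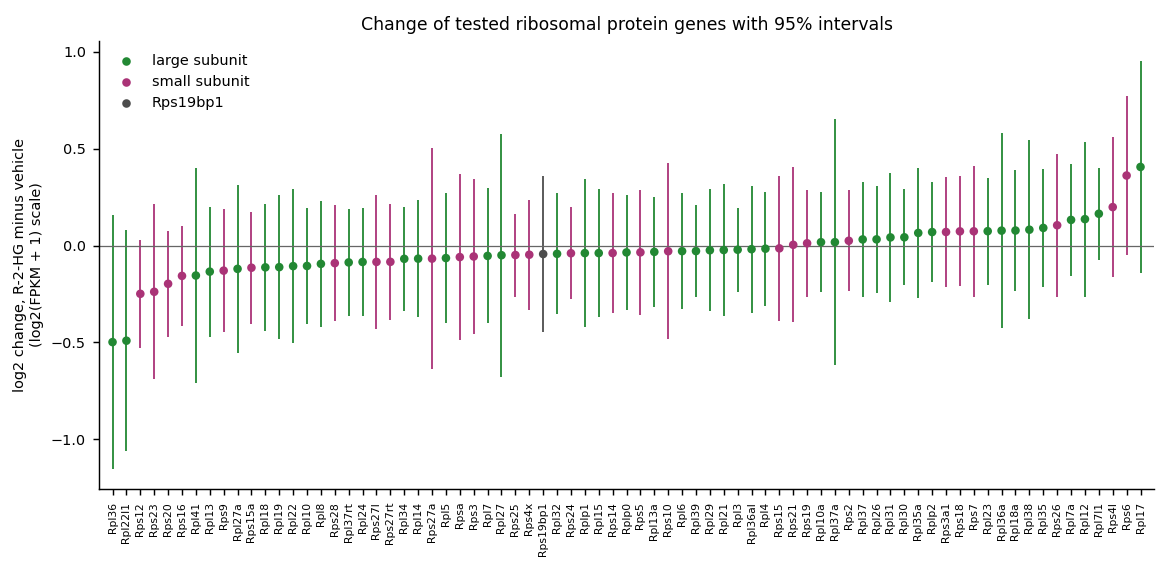
Change of 75 of the 78 tested ribosomal protein genes, R-2-HG minus vehicle in log2(FPKM + 1), with its 95% interval from limma without pairing. Green marks the large subunit, purple the small subunit and grey Rps19bp1, in order of the change. Every interval includes 0, and Rpl36, Rpl22l1, Rps6 and Rpl17 lie farthest from it.

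The groups did not overlap for 3 of the 78 genes. All R-2-HG libraries lay above all vehicle libraries for Rps6 and Rpl7l1, beside 2.03% of all genes tested, and Rps6 had passed the filter only through its R-2-HG libraries. Rpl7l1, the paralog of Rpl7, stood at 32.9, 31.1 and 29.6 FPKM in vehicle and 34.0, 33.2 and 38.3 in R-2-HG. Its change was 0.16 ± 0.10 and that of Rps6 0.36 ± 0.18. All R-2-HG libraries lay below all vehicle libraries for Rps16 alone, beside 2.66% of all genes. Rps16, a small subunit protein, stood at 81.0, 75.3 and 76.0 FPKM in vehicle and 75.1, 61.1 and 72.6 in R-2-HG, a change of -0.16 ± 0.11. Neither direction stood apart from the share of all genes.

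The smallest unadjusted p among genes with a lower R-2-HG mean was 0.0745, for Rps12 of the small subunit (limma, adjusted p 0.99998). With libraries paired by number in limma, the unadjusted p was 0.0071 for Rps12 and 0.029 for Rpl22l1 (adjusted p 0.991 for each). Rps12 stood at 68.5, 56.5 and 57.7 FPKM in vehicle and 57.1, 48.1 and 48.0 in R-2-HG, a change of -0.25 ± 0.12, with an overlap only between vehicle 2 and R-2-HG 1. Of Rps12 transcript words 16.4% occur in no other gene model, and its copies with a row summed to 22.9 FPKM, so its level is uncertain. Rpl22l1 stood at 1.93, 2.50 and 1.58 FPKM in vehicle and 1.72, 1.34 and 0.489 in R-2-HG (-0.49 ± 0.25, and -0.84 with a pseudocount of 0.1). Rpl36, a small protein of the large subunit, stood at 4.23, 6.23 and 2.83 FPKM in vehicle and 4.09, 2.53 and 1.86 in R-2-HG (-0.50 ± 0.28). Both are low genes, and with Rpl17 they had the largest spread over the 6 libraries. Of Rpl36 transcript words 18.9% occur in no other gene model, and its 3 copies have no row, so its level is uncertain too. Rps20, of the small subunit, had a change of -0.20 ± 0.12, from 18.3 ± 1.31 FPKM in vehicle to 15.8 ± 1.65 FPKM in R-2-HG (SD, n = 3).

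Among genes with a higher R-2-HG mean, the smallest unadjusted p, 0.0772 in limma (adjusted p 0.99998), was that of Rps6, which was tested only because its R-2-HG values lifted its mean over 1 FPKM, so this rank supports nothing. Rpl17, near the exit tunnel, was next with 6.53, 5.83 and 3.34 FPKM in vehicle and 5.84, 6.602 and 8.98 in R-2-HG, a change of 0.41 ± 0.24. Its vehicle 3 value was the lowest and its R-2-HG 3 value the highest. With both libraries of that number left out and the others paired, the change was 0.0079. Of Rpl17 transcript words 21.3% occur in no other gene model, so its level is uncertain. Rpl7l1, Rps4l and Rpl7a completed the 5, and Rpl7a, of the large subunit, stood at 28.9, 28.6 and 24.4 FPKM in vehicle and 31.5, 26.2 and 32.6 in R-2-HG (0.13 ± 0.12). The level of Rpl7a is uncertain as well, with 18.8% of its words in no other gene model and 17 copies.

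Libraries differed from each other more than the groups did. Ribosomal protein genes held 2.38%, 2.20% and 2.35% of all FPKM in vehicle 1, 2 and 3 and 2.27%, 2.07% and 2.45% in R-2-HG 1, 2 and 3. The group means were 2.31% ± 0.0956 in vehicle and 2.26% ± 0.186 in R-2-HG (SD, n = 3), a difference of -0.05 that is smaller than either SD and turned to 0.05 without R-2-HG 2. Large subunit genes held 1.11% ± 0.0526 and 1.09% ± 0.103, and small subunit genes 1.19% ± 0.0435 and 1.17% ± 0.0847. The ratio of the large to the small subunit sum was 0.931 ± 0.0153 in vehicle and 0.936 ± 0.0203 in R-2-HG. Both sums had their lowest share in R-2-HG 2 (0.987% and 1.08%) and their highest in R-2-HG 3 (1.19% and 1.25%), with ratios of 0.914 and 0.954. The sums leave out the copies, and the ratio was not recomputed with them. Copies summed to 315, 267 and 224 FPKM for Rpl35, Rpl12 and Rpl9 of the large subunit. For Rps7 and Rps26 of the small subunit they summed to 265 and 181 FPKM. Which subunit has the larger sum is therefore uncertain.

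Of the 78 tested genes, 44 (56.4%) had the lowest of their 6 values in R-2-HG 2, where 16.6% of all genes tested had theirs. The highest value was in R-2-HG 3 for 32 genes (41.0%, all genes 24.6%) and in vehicle 1 for 25 (32.1%, all genes 16.2%), the library with the highest sums of B cell, T and NK cell, neutrophil and fibroblast markers, whose part in this was not tested. The median deviation from each gene's own mean was 0.11, -0.08 and 0.01 in vehicle 1, 2 and 3 and 0.05, -0.20 and 0.12 in R-2-HG 1, 2 and 3, on the log2 scale. R-2-HG 2 also had the fewest estimated fragments and the smallest sum of FPKM (271978, others 282727 to 302589), and their part in this was not tested. Across the 6 libraries, the deviations of gene pairs had a median Pearson correlation of 0.39, and of 0.60 for the 56 genes at or above 10 FPKM, as a description of genes that share libraries and depth.

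**Figure D4:**
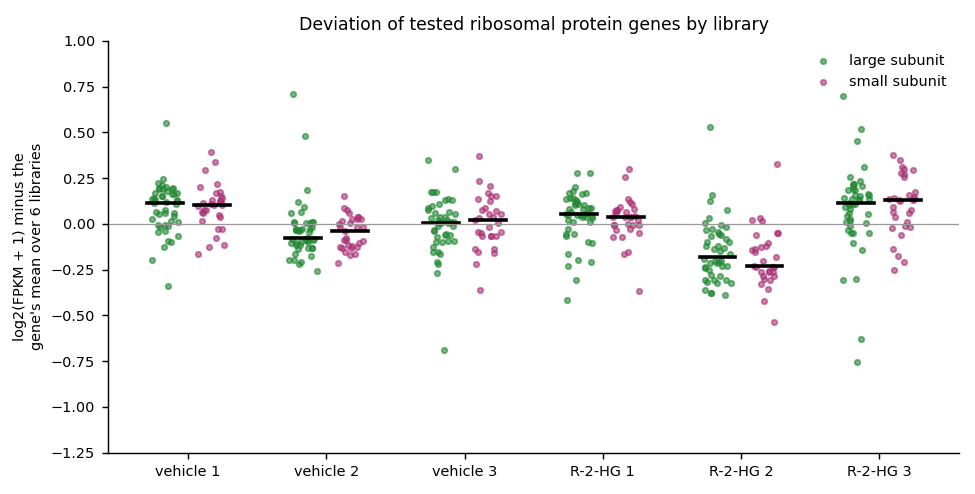
Deviation of each tested ribosomal protein gene from its mean over 6 libraries, on the log2(FPKM + 1) scale, by library. Each point is 1 gene (green, large subunit; purple, small subunit), and black bars are medians. Both subunits have their lowest medians in R-2-HG 2 (-0.18 and -0.23) and medians of 0.11 and 0.13 in R-2-HG 3.

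Pairs of libraries with the same number did not show 1 direction. From vehicle 1 to R-2-HG 1 the value was lower for 56 of 78 genes (71.8%, all genes 53.8%), and from vehicle 2 to R-2-HG 2 for 58 (74.4%, all genes 47.4%). From vehicle 3 to R-2-HG 3 it was higher for 54 and lower for 24 (30.8%, all genes 48.8%). The median differences were -0.07, -0.13 and 0.11, and over all genes tested -0.01, 0.01 and 0.01. R-2-HG was lower in all 3 pairs for 11 genes (11.8% of all genes tested were) and higher in all 3 for 4 (all genes 11.7%).

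Other genes of translation gave no call either, with 0 called in every list by limma. At an unadjusted p under 0.05 stood 1 ribosome biogenesis gene, 1 gene of mTOR and S6 kinase signalling, 3 mitochondrial ribosomal protein genes and 1 mitochondrially encoded gene. Over all genes tested the share was 1.44%. Of 37 translation factors tested, 22 had a higher and 15 a lower R-2-HG mean (median change 0.01), and the 2 with the smallest p, Eif5b and Eif2s2, had changes of 0.17 ± 0.12 and 0.14 ± 0.11. Of 48 ribosome biogenesis genes tested of 49, 29 were higher and 19 lower (median 0.05). Brix1, an assembly factor of the large subunit, stood at 6.56, 6.71 and 5.46 FPKM in vehicle and 8.09, 8.68 and 8.99 in R-2-HG. All its R-2-HG libraries lay above all vehicle libraries, as for 5 of the 48 genes (10.4%, all genes 2.03%). Its change of 0.41 ± 0.12 had an unadjusted p of 0.0108 (limma, adjusted p 0.99998). Brix1 was named for the smallest p of its list, so its lack of overlap is no separate support. Tsr1, an assembly factor of the small subunit, had a change of 0.31 ± 0.15.

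Of 18 tested genes of mTOR and S6 kinase signalling, 7 had a higher and 11 a lower mean. Rps6ka3, the kinase RSK2, stood at 13.8, 14.8 and 14.3 FPKM in vehicle and 6.64, 9.45 and 12.2 in R-2-HG. All its R-2-HG libraries lay below all vehicle libraries, as for 2 of the 18 genes (11.1%, all genes 2.66%). Its change of -0.59 ± 0.19 had an unadjusted p of 0.0162 (limma, adjusted p 0.99998). It too was named for the smallest p of its list. Rps6kc1 followed at -0.22 ± 0.12. The 4 tested snoRNA host genes of 6 were all lower, led by Snhg8 at -0.33 ± 0.19 and Snhg12 at -0.11 ± 0.17. Rack1 and Fau, ribosomal proteins without an Rpl or Rps name, had changes of -0.11 ± 0.20 and 0.05 ± 0.10.

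The mitochondrial ribosome is built from other genes and translates the messages of the mitochondrial genome. Of 77 tested mitochondrial ribosomal protein genes of 78, 38 had a higher and 39 a lower mean (median -0.01), with Mrpl3 at 0.37 ± 0.14 and Mrpl16 at 0.31 ± 0.12. Of the 13 mitochondrially encoded genes, 10 were higher and 3 lower (median 0.04), with mt-Nd6 at -0.65 ± 0.28 and mt-Nd5 at 0.15 ± 0.15. These 13 genes held 6.72% to 8.21% of all FPKM per library, more than the cytosolic ribosomal protein genes.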

How the data were processed

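RNA from 3 vehicle and 3 R-2-HG libraries had been sequenced, and the authors deposited 1 table of FPKM per gene and library, which was used as deposited. Per the submitters' processing notes, Bowtie 0.12.2, Cuffdiff and the builds mm8 and mm10 were used, in roles those notes leave out. Not given in the sources used here: annotation, strand handling, and the treatment of reads that map to several places. FPKM holds no counts, so no count test was run. Every column matched 1 library by name.

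Genes averaging at least 1 FPKM went into limma 3.58.1 (R 4.3.3) as log2(FPKM + 1), with a pseudocount of 1 (eBayes with trend and robust estimation, two-sided, Benjamini-Hochberg over 9701 genes, threshold 0.05); the scale understates changes of low genes. The script was tested on simulated data. Python 3.11.15, pandas 2.3.3, numpy 2.4.6 and matplotlib 3.10.9 did the rest. Depth was estimated from the steps of FPKM times length in genes with 1 transcript, whose low values were whole fragments, to within 0.1, in 95.8% to 97.0% of cases. Positions and transcripts are those of GENCODE M21 (GRCm38), matched by identifier for all 88 genes, and need not be the authors' annotation; 28 genes overlap an exon of another gene on the same strand and 19 on the opposite one.

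The ribosomal protein genes and all lists were chosen with earlier results of these data known. Genes named in full are the 5 highest and 3 lowest means above 0, the 5 smallest p in each direction, genes without overlap between groups, the 3 of largest spread, a fixed list (Rplp0, Rplp1, Rplp2, Rpsa, Rps6, Rpl5, Rpl11, Rps19, Rps27a, Rps19bp1 and 8 paralog pairs), and the 2 smallest p of each other list; some genes that this rule names are not reported here and are left out of the plots with gene names, but counts and medians include them. The genes described for their copies or sequences were named after their values were seen. Replicate numbers are shared by the groups in the titles, which do not say what they mark. Deviations from the group means correlated at 0.54, 0.37 and 0.36 between libraries of the same number and from -0.47 to 0.05 otherwise, so the numbers were taken to pair the libraries, from the data and not the labels. Alternatives were another pseudocount (0.1), filter (none, 5 FPKM), scaling (median centring, quantile), spread estimate, the replicate number as a block, each library left out, and the inclusion of copies.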

Additional observations from a re-analysis of the deposited data

How the results depend on the processing

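No ribosomal protein gene was called under any of the 16 other fits, and the lowest adjusted p of a named one was 0.744. Over all genes tested, 0 were called with the replicate number as a block, so pairing the libraries changed no call. In that limma fit 329 genes had an unadjusted p under 0.05. Of these, 2 were ribosomal protein genes, Rps12 (0.0071) and Rpl22l1 (0.029), each with an adjusted p of 0.991. Leaving out a library or a number gave 0 to 4 calls. The median change of the ribosomal protein genes (-0.04) ran from -0.10 to 0.07 with a library or number left out, turning above 0 without vehicle 1 (0.02) and without R-2-HG 2 (0.07), and with the block without number 2 (0.02). It ran from -0.04 to -0.03 under all other alternatives, including genes summed with their copies (-0.04) or only genes with at least 50% unique words (-0.04, 39 tested), both chosen after seeing the data. The difference in share of FPKM ran from -0.14 to 0.05 with a library or number left out and from -0.06 to -0.02 otherwise.

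Of 32 named tested genes, 20 changed sign in at least 1 fit, never with an adjusted p under 0.05; the cause was not tested. With a library or a number left out, the log2 change of Rpl22 ran from -0.27 to 0.0219, Rpl36a from -0.13 to 0.29, Rpl36al from -0.19 to 0.0819, Rpl39 from -0.0678 to 0.0132, Rpl3 from -0.0505 to 0.00081, Rpl4 from -0.099 to 0.0956 and Rpl5 from -0.19 to 0.0252. Likewise, Rpl7 ran from -0.16 to 0.091, Rpl7a from -0.00363 to 0.26, Rpl8 from -0.19 to 0.0352, Rplp0 from -0.12 to 0.0575, Rplp1 from -0.14 to 0.13, Rplp2 from -0.016 to 0.12 and Rps15 from -0.17 to 0.13. Finally, Rps19 ran from -0.0581 to 0.0757, Rps19bp1 from -0.20 to 0.12, Rps27a from -0.33 to 0.18, Rps27l from -0.22 to 0.0633, Rps4x from -0.17 to 0.0596 and Rpsa from -0.22 to 0.14. Among genes that kept their sign, Rpl10 ran from -0.20 to -0.032, Rpl17 from 0.0079 to 0.68, Rpl22l1 from -0.69 to -0.24, Rpl36 from -0.73 to -0.23, Rpl7l1 from 0.0669 to 0.22, Rps12 from -0.33 to -0.16, Rps16 from -0.21 to -0.0663, Rps20 from -0.30 to -0.0664, Rps4l from 0.0842 to 0.33 and Rps6 from 0.19 to 0.52, and with a pseudocount of 0.1 Rpl22l1 stood at -0.84 (-0.49 with 1) and Rps6 at 0.66 (0.36 with 1). Rpl4 was also at 0.0116 under quantile normalization. The count tests planned for a count table were not run, because the table holds FPKM, and the share was not recomputed on other log scales, to which it does not apply. Levels of genes with near-identical copies stay uncertain, and values under about 0.148 FPKM are near 1 fragment of a short transcript.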
